A study of Mus musculus with 24 samples.

Results

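Bone marrow-derived macrophages were kept for 24 h in medium alone or in medium with isoproterenol, and their transcripts were measured on Illumina MouseRef-8 v2.0 bead arrays. The comparison takes the 6 isoproterenol arrays and the 6 media arrays of a series of 24, chosen by the activator named in the sample labels and paired by experiment number. The cells came from female Balb/c mice aged 8 to 10 weeks, and each of 3 experiments holds 2 arrays per group. The other 12 arrays are macrophages given IL-4 or IFN-gamma (6 arrays each) for the same time. In the main comparison they enter only the shared estimate of the spread and the filter that decides which genes are tested. They also enter the fit with slide as a block and the comparisons of each cytokine with medium and with isoproterenol. The labels give no dose of isoproterenol and do not say whether the 2 arrays of an experiment are separate cultures or animals. The 2 arrays were therefore averaged, n is 3 experiments per group, and a p-value here covers the spread among these samples alone, part or all of which may be technical.

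Isoproterenol is a synthetic catecholamine that activates beta-adrenergic receptors, which couple through the stimulatory G protein to adenylyl cyclase. The cyclic AMP that forms activates protein kinase A, which phosphorylates CREB, a factor that binds the cAMP response element TGACGTCA or its shorter core TGACG in promoters. Cyclic AMP is known in macrophages for damping inflammatory cytokines and for inducing immediate-early genes.

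The macrophage label held in the data. All 18 genes of a macrophage list, among them Adgre1, Csf1r and Cd68, were above the background limit of 149.1 intensity units on at least 6 of the 12 arrays, and their summed normalized intensity was 116540 to 127520 on the media arrays and 118840 to 125630 with isoproterenol. Array medians before normalization lay between 134.6 and 160.4, and 9231 to 9299 genes per array were above the limit. Partner arrays of one experiment and group correlated at 0.9968 to 0.998. Of 18132 genes in the normalized table, 10111 (55.8%) exceeded that limit on at least 6 arrays of the series and were tested. The RNA is from whole cultures, so fewer cells of a type and less RNA per cell cannot be told apart.

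Isoproterenol changed a small set of genes, and most of them rose. A gene was called at a Benjamini-Hochberg adjusted p under 0.05 in a limma fit with experiment as a block. By that rule 129 genes differed, which is 1.28% of those tested. Of these, 102 (1.01%) rose and 27 (0.267%) fell. The rises had a median size of 1.437-fold and the falls of 1.4-fold, and the smallest called difference was 1.182-fold. Only 9 genes rose by 2-fold or more, and 38 rises and 7 falls reached 1.5-fold. Each of the 129 genes moved in one direction throughout experiments 1, 2 and 3. The calls rest on these same experiments, so that agreement is largely set by the selection and is no replication. In 90 of them the 6 isoproterenol arrays and the 6 media arrays did not overlap, 76 higher and 14 lower, while 2.47% of all genes tested were separated in that way.

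The slides limit this comparison. Experiment 1 has both groups on 1 slide, whereas in experiments 2 and 3 the groups lie on different slides, so slide and group cannot be told apart there. With slide and experiment both as blocks, 5 genes stayed past the threshold, Pf4, Cav1, Col18a1, Dmkn and Il1rn. In that fit all 129 genes kept their direction, with log2 differences between 0.587 and 1.43 times those given here. Within slide 1 alone, which rests on 2 arrays against 2, limma called 61 genes (0.603% of those tested), each with the sign of the full fit, and 34 of the 129 were among them. The p-values of slide 1 measure the spread between the 2 arrays of 1 experiment and not that between experiments. Both slide fits use arrays of the full fit, so their shared signs are no independent check.

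**Figure D1:**
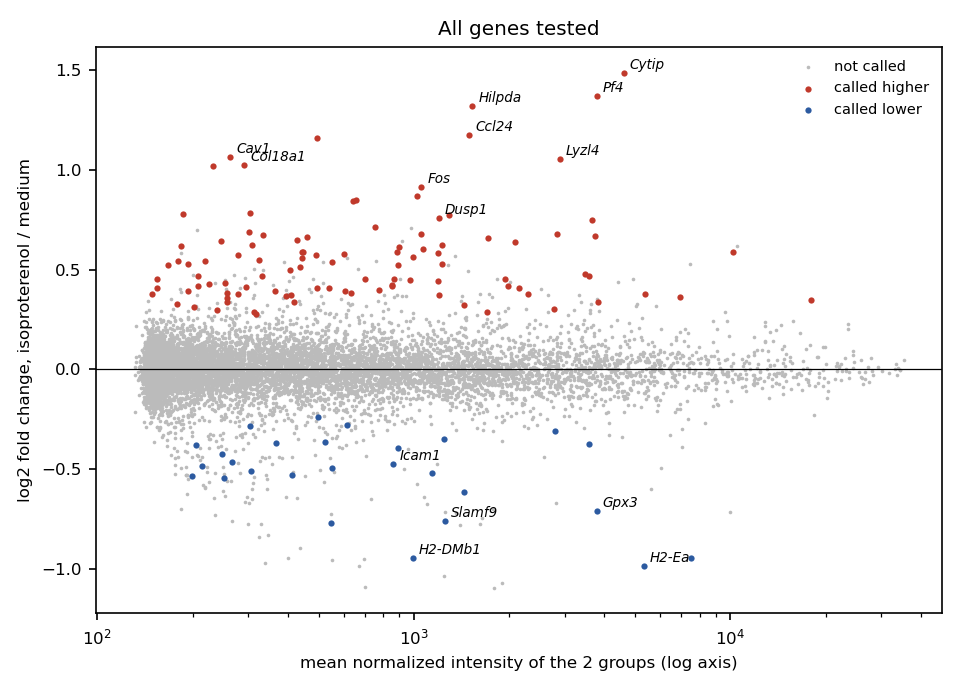
Log2 fold change of isoproterenol over medium (vertical axis) against the mean normalized intensity of the 2 groups (horizontal, log axis) for the 10111 genes tested. The 102 genes called higher (red) reach up to 1.49 for Cytip, and the 27 called lower (blue) reach down to -0.99 for H2-Ea.

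Caveolin-1, Cytip, Pf4 and Fos were the genes that marked the comparison, and all 4 rose in every experiment. Cav1 encodes the main coat protein of caveolae, the flask-shaped pits of the plasma membrane. Its normalized intensity ran from 181 to 213 on the media arrays (median 192) and from 295 to 355 with isoproterenol (median 335). The 2 groups of arrays were far apart, and the 3 experiments gave almost the same difference, 1.10, 1.01 and 1.08 on the log2 scale. Cav1 rose 2.09-fold (log2 1.07 ± 0.06 SE, adjusted p = 2.4e-05). Fold changes were computed after background correction and therefore exceed the ratio of the normalized means for dim genes, which for Cav1 was 1.70.

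Cytip encodes a protein that binds cytohesin-1 and regulates the adhesion of leukocytes through integrins. It spanned 1562 to 3639 in medium (median 2425) and 5962 to 7219 with isoproterenol (median 6848). No array of one group reached into the other, but the media arrays differed among themselves more than the isoproterenol arrays did. The rise was 2.80-fold (log2 1.49 ± 0.19 SE, adjusted p = 0.0043), with log2 values of 0.85, 2.03 and 1.58 in the 3 experiments. With slide and experiment as blocks the log2 difference was 1.06 with an adjusted p of 0.065.

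Pf4 is platelet factor 4 or CXCL4, a chemokine stored in platelet granules and also made by macrophages. Its intensity was 1420.3 to 2876 in medium (median 2286) and 3649 to 6859 with isoproterenol (median 5714). The groups did not overlap, and here the difference was largest in experiment 1, the one with both groups on a single slide, at 1.72 against 1.22 and 1.17 (log2). Pf4 rose 2.58-fold (log2 1.37 ± 0.16 SE, adjusted p = 0.0028).

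**Figure D2:**
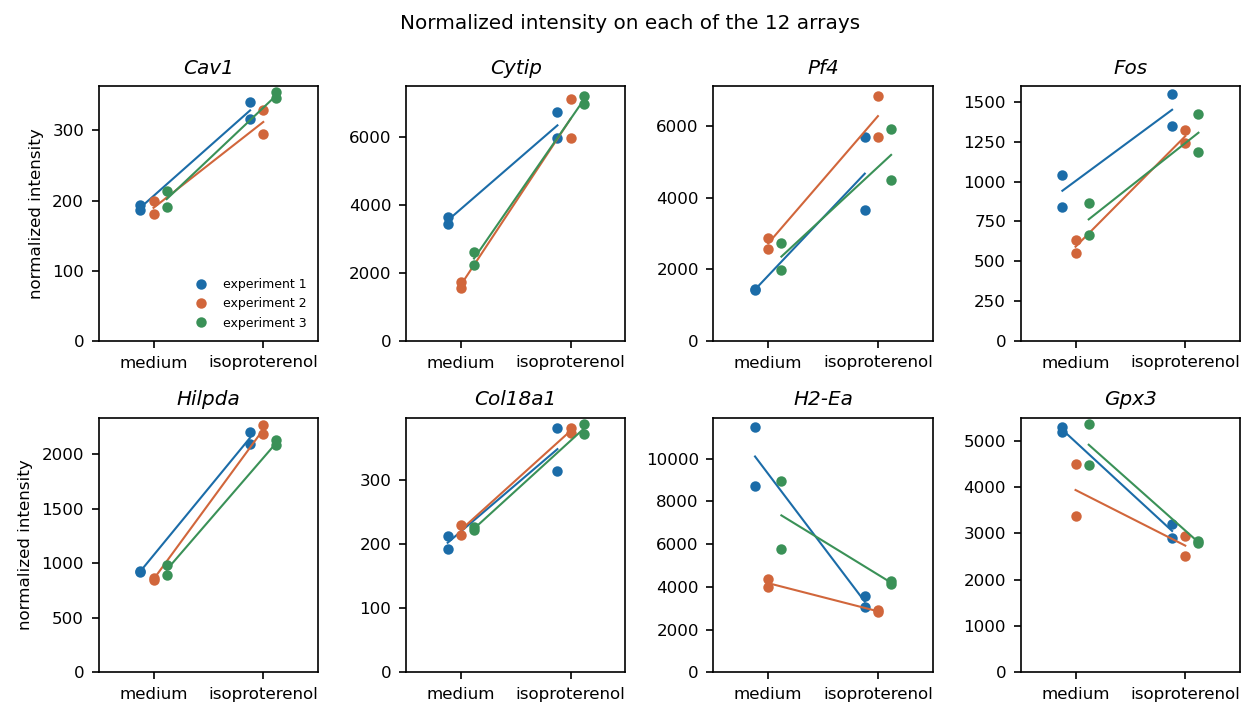
Normalized intensity (vertical axis, from 0) of 8 genes on each of the 6 media and 6 isoproterenol arrays (points, coloured by experiment), with lines between the means of the 2 arrays of each experiment. Cav1, Cytip, Pf4, Fos, Hilpda and Col18a1 lie higher with isoproterenol without overlap, Gpx3 lies lower without overlap, and the H2-Ea arrays overlap, with medium from 3984 to 11492 and isoproterenol from 2818 to 4263.

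Fos, the immediate-early subunit of the AP-1 factor and a textbook target of CREB, was raised at 24 h, the only time measured. The media arrays gave 552 to 1043 (median 753) and the isoproterenol arrays 1188 to 1551 (median 1339.5). Every isoproterenol array lay above every media array. The rise was 1.88-fold (log2 0.91 ± 0.09 SE, adjusted p = 9.8e-04), with a log2 difference of 0.67 within experiment 1 that did not pass the threshold on that slide alone (adjusted p = 0.083). Dusp1, the phosphatase that inactivates MAP kinases and another immediate-early gene, had narrow groups, 862 to 994 (median 899) and 1438 to 1547 (median 1490.4). It rose 1.69-fold (log2 0.76 ± 0.08 SE, adjusted p = 0.002), by 0.75, 0.72 and 0.80 in the 3 experiments.

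The upstream sequences of these 2 genes are shown because both are known targets of CREB and their promoters carry that core. Each line gives the 200 bases that end at the base before the annotated start, 5' to 3' on the gene's strand, from RefSeq for GRCm38.p6, which is the C57BL/6J genome and not that of Balb/c. Capitals mark TGACG or its reverse complement, and in Dusp1 the run of 8 capitals is the full element.
Fos, chr12:85473690-85473889, plus strand: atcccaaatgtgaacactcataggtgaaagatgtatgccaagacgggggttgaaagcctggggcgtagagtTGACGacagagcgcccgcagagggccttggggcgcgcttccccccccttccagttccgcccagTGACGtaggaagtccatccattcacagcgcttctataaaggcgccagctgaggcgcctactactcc
Dusp1, chr17:26508473-26508672, minus strand: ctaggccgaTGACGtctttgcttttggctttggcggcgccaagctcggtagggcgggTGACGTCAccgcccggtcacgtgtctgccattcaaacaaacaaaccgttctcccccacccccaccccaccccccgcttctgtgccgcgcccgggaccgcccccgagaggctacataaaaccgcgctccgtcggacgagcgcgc

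In Fos the core begins at -129 and at -66 relative to the start. Dusp1 has it at -191, -143 and -140, and the last 2 overlap within the full element. Over the window from 250 bases before to 50 after the start, 73 of the 102 genes that rose, 15 of the 27 that fell and 7669 of all genes tested had a RefSeq promoter. The full element TGACGTCA stood in 3 promoters of genes that rose (4.11%: Dusp1, Col24a1 and Neurl1a), in 0 of those that fell and in 3.49% of all genes tested. The core TGACG, on either strand and contained in the full element, was found in 28.8% of promoters of genes that rose, 20% of those that fell and 34.7% of all genes tested. The AP-1 element TGANTCA, searched on both strands, was in 13.7%, 13.3% and 6.75%. Across all 32851 promoters of the table the shares were 1.79% for TGACGTCA, 20.8% for TGACG and 7.81% for TGANTCA. These are counts of letters in a window and not of bound sites.

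A list of 24 tested cAMP and CREB target genes had 4 called higher and 0 lower, where 1.01% of all genes tested rose and 0.267% fell. Its median log2 difference was 0.13, against -0.001 over all genes tested, and 20 of the 24 were above 0. The called members were Fos, Dusp1, Ier3 and Crem. Fos is also 1 of the 4 genes that marked the comparison, and the list was assembled with earlier results of these data known. Ier3, an early-response gene that modulates survival, rose 1.58-fold, from 1018 to 1673 in medium (median 1351) to 1899.8 to 2211 with isoproterenol (median 2106) without overlap (adjusted p = 0.024). Crem, whose products include the cAMP-inducible repressor ICER, rose 1.25-fold (adjusted p = 0.047) and lay close to background, 162 to 171 in medium (median 166) against 184 to 198 (median 193). Its call was lost on leaving out any 1 of 6 of the 12 arrays, with adjusted p-values up to 0.069. Thbs1 (log2 0.70, adjusted p = 0.24, above background on 5 of 6 media arrays), Junb (0.45, adjusted p = 0.18) and Id1 (-0.34, adjusted p = 0.67) did not pass the test.

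Genes of the receptors and their machinery changed little. Of 25 tested genes for adrenergic receptors, G proteins, cyclases, phosphodiesterases, kinases and CREB cofactors, 0 were called higher and 1 lower, with a median log2 difference of 0.00. The gene called lower was Gnas, which encodes the alpha subunit of the stimulatory G protein. It fell 1.22-fold, from 598 to 788 in medium (median 663) to 489.8 to 641 (median 561), with overlapping arrays (adjusted p = 0.039), and without array 2 of experiment 3 with isoproterenol the adjusted p was 0.13. Adrb1 and Adrb3 stayed at the edge of background in both groups, with medians of 148 and 151 for Adrb1 and of 147 and 153 for Adrb3.

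**Figure D3:**
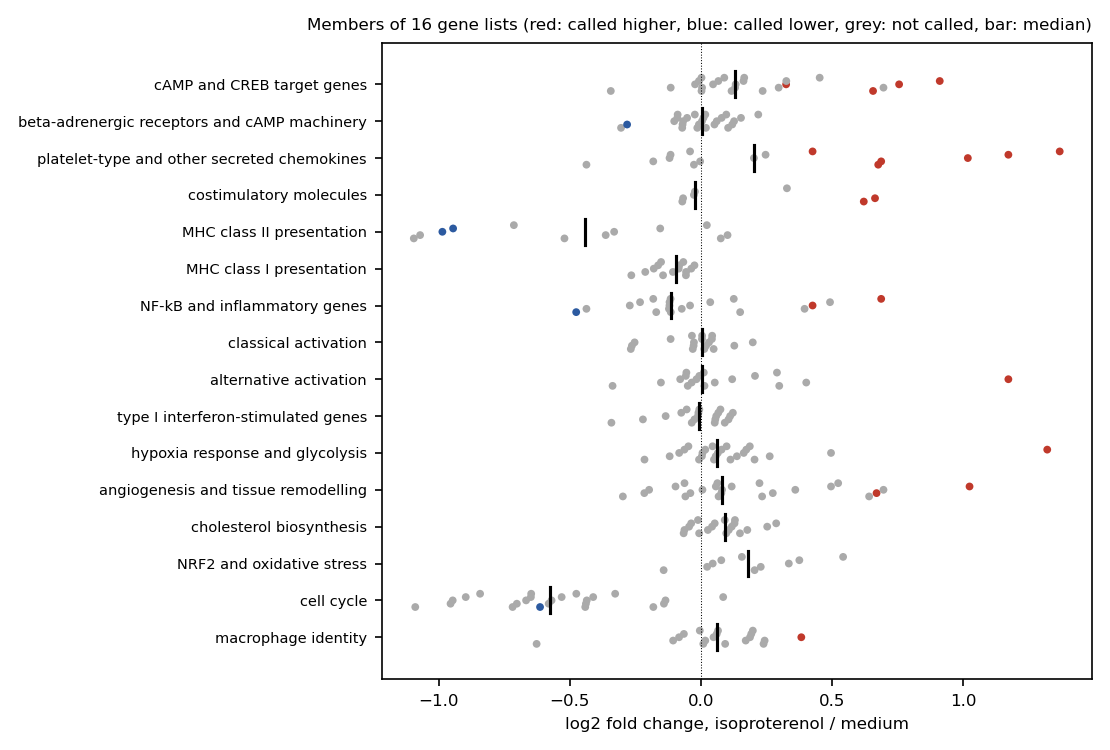
Log2 fold change of isoproterenol over medium for the tested members of 16 gene lists (points; red called higher, blue called lower, grey not called) with each list's median (bar). The secreted chemokines hold 6 genes called higher, the cAMP and CREB targets 4, and the medians of the cell cycle and MHC class II lists, -0.58 and -0.44, lie furthest below 0 among the lists drawn.

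The list of platelet-type and other secreted chemokines held the highest number of called genes of any list. Of 15 tested, 6 rose and 0 fell, where 1.01% of all genes tested rose and 0.267% fell. The median log2 difference was 0.20, and 7 of the 15 were below 0. Pf4, 1 of the 4 genes that marked the comparison, is among the 6. The list was assembled with earlier results of these data known, so its count and rank are no test of it. The other called members were Ppbp, Ccl24, Cxcl1, Cxcl14 and Cxcl2. Ppbp encodes the precursor of CXCL7 and, like Pf4, is best known from platelets. Its intensity was 157 to 192 in medium (median 171) and 220.3 to 414 with isoproterenol (median 271). The groups did not overlap, and it rose 2.03-fold (adjusted p = 0.0072), although from a low level. Ccl24, or eotaxin-2, attracts eosinophils and is a known product of IL-4-treated macrophages. It was 667 to 1163 in medium (median 990.4) and 1504 to 2581 with isoproterenol (median 2041), and rose 2.26-fold (adjusted p = 9.8e-04) in every experiment, by 0.87, 1.23 and 1.42 on the log2 scale.

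The neutrophil attractants Cxcl1 and Cxcl2 rose less. Cxcl1 was 211 to 308 in medium (median 243) and 289.7 to 377 with isoproterenol (median 367), a 1.61-fold rise with 1 isoproterenol array inside the range of medium (adjusted p = 0.0082, and 0.062 without media array 1 of experiment 2). Cxcl2 rose 1.34-fold from a median of 203 to 246 (adjusted p = 0.025, and 0.073 without isoproterenol array 1 of experiment 3). Cxcl14, a chemokine made mainly by epithelia, rose 1.60-fold from 1839 to 2547 (median 2217) to 3072 to 3913 (median 3531) without overlap (adjusted p = 0.041). Leaving out media array 1 of experiment 2 or of experiment 3 took Cxcl14 to adjusted p-values of 0.055 and 0.052.

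Genes that restrain inflammation and genes that carry it were both among those that rose. Il1rn, the secreted antagonist of the interleukin-1 receptor, was 799.9 to 1166 in medium (median 949) and 1373 to 1784 with isoproterenol (median 1605). The arrays did not overlap and the rise was 1.71-fold (log2 0.77 ± 0.07 SE, adjusted p = 4.2e-04). C5ar1, the receptor for the complement fragment C5a, rose 1.72-fold from 211 to 279 (median 240.2) to 311 to 434 (median 357), most in experiment 3 (log2 1.23, against 0.53 and 0.58; adjusted p = 0.016). Of 20 tested genes of NF-kB and inflammation, 2 rose (Cxcl1 and Cxcl2) and 1 fell (Icam1, the ligand of the integrin LFA-1). Icam1 went from 948 to 1032 (median 998) in medium to 686 to 806 (median 717) without overlap, a 1.39-fold fall (adjusted p = 0.0077). The list's median was -0.12. Il1b differed by 1.17 in experiment 2 and by -0.16 in experiment 1 on the log2 scale, and did not pass the test (adjusted p = 0.56).

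The costimulatory ligands Cd80 and Cd86, which engage CD28 and CTLA-4 on T cells, both rose, while the other 5 tested members of their list were not called. Cd80 was 335 to 401 in medium (median 373) and 501 to 602 with isoproterenol (median 551), a 1.58-fold rise (adjusted p = 0.0085). Cd86 was 729 to 1209.6 (median 989) and 1366 to 1626 (median 1434), a 1.54-fold rise (adjusted p = 0.025). Neither overlapped between the groups, and for both the difference was smallest in experiment 1, 0.40 for Cd80 and 0.27 for Cd86 on the log2 scale. Cd274 gave a log2 difference of 0.33 (adjusted p = 0.41) and Cd276 of -0.03 (adjusted p = 0.97). Pdcd1lg2 was above background on none of the 12 arrays, and Cd40 on 3 media arrays and 1 isoproterenol array, so they say nothing of a change. Cd28, the gene for their receptor and usually a T cell gene, also rose on these arrays, 1.80-fold from 349.7 to 706 (median 481) to 636 to 1111 (median 788) with overlap. Its adjusted p of 0.014 became 0.12 without isoproterenol array 1 of experiment 1. Of 12 T and NK cell markers, Lck, Klrb1c and Prf1 were above background on at least 6 of the 12 arrays (Lck and Prf1 on all 12), and Cd3e, Cd4, Cd8a, Cd8b1, Ncr1 and Gzmb on none. Their summed intensity was 1675 to 1742 in medium and 1667 to 1729 with isoproterenol, and the sum at the limit is 1789. Their part in the Cd28 values was not tested.

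Hilpda, Col18a1 and Dmkn gave some of the clearest separations. Hilpda encodes a hypoxia-inducible protein of lipid droplets that inhibits the lipase ATGL. It was 842 to 988 in medium (median 905) and 2078 to 2263 with isoproterenol (median 2156), with narrow ranges in both groups. It rose 2.50-fold (log2 1.32 ± 0.14 SE, adjusted p = 0.0015). The other genes of its 2 lists did not follow it past the threshold. Of 24 tested genes of hypoxia and glycolysis, Hilpda was the 1 called, and the same was true of the 20 tested genes of lipid droplets and lipid handling, with medians of 0.06 and 0.03. Vegfa was 216 to 395 in medium (median 277) and 309 to 441 with isoproterenol (median 379), a log2 difference of 0.50 that did not pass (adjusted p = 0.18).

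Col18a1 encodes the alpha chain of collagen XVIII, a basement membrane collagen whose end fragment is endostatin. It ran from 192 to 229 in medium (median 218) and from 314 to 387 with isoproterenol (median 376), and rose 2.04-fold (log2 1.03 ± 0.08 SE, adjusted p = 2.3e-04). The 3 experiments gave 1.06, 1.01 and 1.00 on the log2 scale. Of 24 tested genes of angiogenesis and remodelling, Col18a1 and the lysosomal protease gene Ctsl were called higher and 0 lower. Ctsl rose 1.59-fold from 1982 to 3612 (median 2961) to 3996 to 4851 (median 4589.6) without overlap (adjusted p = 0.01). Mmp14 (0.64, adjusted p = 0.47) and Mmp13 (0.52, adjusted p = 0.26) had large log2 differences that did not pass. Dmkn, which encodes the secreted protein dermokine of skin, rose 1.72-fold (adjusted p = 2.8e-04) from 148 to 167 (median 153) to 203 to 229 (median 218). Its size is uncertain, since it was above the background limit on 5 of the 6 media arrays. Cav1, Col18a1 and Dmkn, 3 of 49 called genes named by the rule, kept their call under every alternative that gave them a value.

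The remaining genes among the 20 with the largest rises were Lyzl4, Sel1l3, Pdpn, Apoc2 and 2 that keep the array's name, D330014H01RIK and LOC100048845. Lyzl4, a lysozyme-like gene, was 1547 to 2423 in medium (median 1886) and 3347 to 5149 with isoproterenol (median 3527), a 2.07-fold rise (adjusted p = 0.0089). Pdpn encodes podoplanin, a membrane glycoprotein that binds CLEC-2. It rose 1.68-fold from a median of 2792 to 4201 with overlap (adjusted p = 0.018, and 0.052 without media array 1 of experiment 3). Apoc2, the cofactor of lipoprotein lipase, rose 1.64-fold with overlap (adjusted p = 0.012). The genes Sel1l3, LOC100048845 and D330014H01RIK rose 1.80-fold, 1.82-fold and 2.24-fold without overlap.

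**Figure D4:**
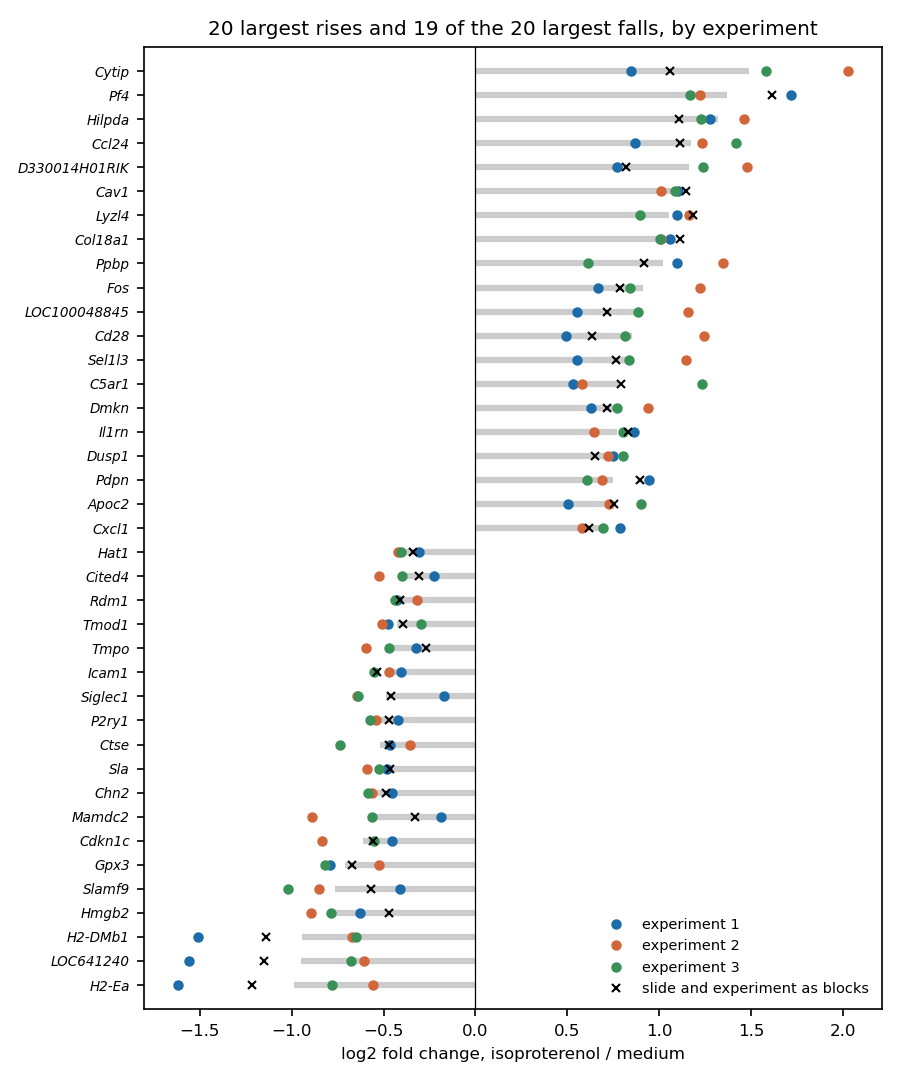
Log2 fold change of isoproterenol over medium in experiments 1, 2 and 3 (coloured points) for the 20 largest rises and 19 of the 20 largest falls among called genes, with the value of the fit (grey bar) and of the fit with slide and experiment as blocks (cross). All points of a gene lie on one side of 0; the falls of H2-Ea, LOC641240 and H2-DMb1 are largest in experiment 1, between -1.62 and -1.51.

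The largest falls were in MHC class II genes, whose products present peptides to helper T cells. H2-Ea, the alpha chain of I-E, was 3984 to 11492 in medium (median 7236) and 2818 to 4263 with isoproterenol (median 3313). H2-DMb1, a chain of the peptide-loading molecule H2-DM, was 818 to 1979 (median 1256) and 551 to 883 (median 634). In both genes the highest isoproterenol arrays reached above the lowest media arrays. H2-Ea fell 1.98-fold (log2 -0.99 ± 0.19 SE, adjusted p = 0.032) and H2-DMb1 fell 1.93-fold (log2 -0.95 ± 0.20 SE, adjusted p = 0.045). Both calls were lost when single arrays were left out. Without media array 1 of experiment 3 the adjusted p was 0.084 for H2-Ea and 0.12 for H2-DMb1, and without media array 2 of experiment 1 it was 0.057 for H2-DMb1.

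Of 12 tested genes of class II presentation, those 2 fell and 0 rose. The list's median was -0.44, and 9 of the 12 were below 0; H2-Oa was above background on none of the 12 arrays and H2-Aa on 5 media arrays and 0 isoproterenol arrays. H2-Eb1 (log2 -1.10, adjusted p = 0.062), H2-Ab1 (-1.07, adjusted p = 0.065), the invariant chain Cd74 (-0.71, adjusted p = 0.14) and the transactivator Ciita (-0.52, adjusted p = 0.22) did not pass the test. Probes of the H2 family can also read related transcripts, so the values of single members are uncertain. The difference was larger in experiment 1, where the list's median was -0.84, than in experiments 2 and 3, where it was -0.17 and -0.36. For H2-Ab1 the 3 values were -1.88, -0.62 and -0.72. With slide and experiment as blocks the median was -0.74. All 14 tested genes of class I presentation were below 0 in the fit, from -0.27 to -0.02, as were 5101 of the 10111 genes tested, and 0 were called. In experiments 1, 2 and 3 the class I genes below 0 were 13, 12 and 9, with medians of -0.19, -0.07 and -0.04.

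Dendritic cells express much class II, and their markers were low in both groups. Of 13 dendritic cell markers, 4 were above background on at least 6 of the 12 arrays (Itgax, Batf3, Ccr7 and Irf4), and Zbtb46, Cd209a, Siglech and Kmo were above it on none. The summed intensity of the 13 was 2045 to 2139 on the media arrays and 1983 to 2035 with isoproterenol, where 1938.5 would place each gene at the limit. Batf3 gave a log2 difference of -0.34 (adjusted p = 0.11). The part of these markers in the class II values was not tested.

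The other falls were smaller and several had tight groups. Gpx3, a secreted glutathione peroxidase, was 3385 to 5357 in medium (median 4832) and 2517 to 3194 with isoproterenol (median 2869). It fell 1.64-fold without overlap (adjusted p = 0.016, and 0.069 without media array 1 of experiment 2). Chn2, which encodes beta-2 chimaerin, an inactivator of the GTPase Rac, fell 1.45-fold from 204 to 236 (median 224) to 161 to 189 (median 175) without overlap (adjusted p = 9.8e-04). Slamf9, a receptor of the SLAM family, fell 1.70-fold from a median of 1622 to 854, with overlapping arrays (adjusted p = 0.0051).

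Several of the falls were in genes of surface receptors. P2ry1, a receptor for ADP, fell 1.43-fold (adjusted p = 0.0037). Its arrays were separated between the groups, at 315 to 390.1 in medium against 244 to 305 with isoproterenol. Siglec1, the sialic acid receptor of tissue macrophages, fell 1.40-fold with overlap (adjusted p = 0.041, up to 0.076 when 1 array was left out). The adaptor gene Sla and Ctse, which encodes the endosomal protease cathepsin E, fell 1.45-fold and 1.43-fold without overlap. Other genes among the 20 largest falls were LOC641240, Hmgb2, Cdkn1c, Mamdc2, Tmpo, Tmod1, Rdm1, Cited4 and Hat1. LOC641240 keeps the array's name, fell 1.93-fold (adjusted p = 0.047) and lost its call without any 1 of 6 arrays. Hmgb2, a chromatin protein abundant in dividing cells, fell 1.70-fold (adjusted p = 0.022, and 0.053 without isoproterenol array 2 of experiment 1). Mamdc2, Tmpo, Tmod1, Rdm1, Cited4 and Hat1 fell 1.30-fold to 1.46-fold, and the calls of Mamdc2, Tmpo, Tmod1 and Cited4 were lost without single arrays, with adjusted p-values up to 0.092.

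In a list of 24 tested cell cycle genes the values were mostly lower with isoproterenol. The 1 called was Cdkn1c, which encodes the inhibitor p57 of cyclin-dependent kinases and is no marker of division. It fell 1.53-fold from 1239 to 2224 (median 1801) to 665 to 1424 (median 1333) with overlap (adjusted p = 0.015). The list's median was -0.58, and 23 of 24 genes were below 0. Birc5, an inhibitor of apoptosis needed for chromosome segregation, was 428 to 1634 in medium (median 865) and 292 to 748 with isoproterenol (median 361). Its log2 difference of -1.09 ± 0.28 (SE) did not pass (adjusted p = 0.11), and neither did those of Plk1 (-0.95, adjusted p = 0.16), Cdc20 (-0.95, adjusted p = 0.14), Top2a (-0.90, adjusted p = 0.12) and Ccnb1 (-0.84, adjusted p = 0.15).

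The cell cycle values moved with experiment and slide. The list's median was -0.18 in experiment 1, with both groups on 1 slide, and -0.73 and -0.75 in experiments 2 and 3, where group and slide cannot be told apart. With slide and experiment as blocks it was -0.09, with 17 of 24 genes below 0. Media arrays also differed between experiments. Their mean log2 level over the list was 8.03 and 8.09 in experiment 1, 9.01 and 9.24 in experiment 2 and 8.56 and 8.73 in experiment 3, against 7.76 to 8.52 on the 6 isoproterenol arrays. The class II genes went the other way, with their larger difference in experiment 1.

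**Figure D5:**
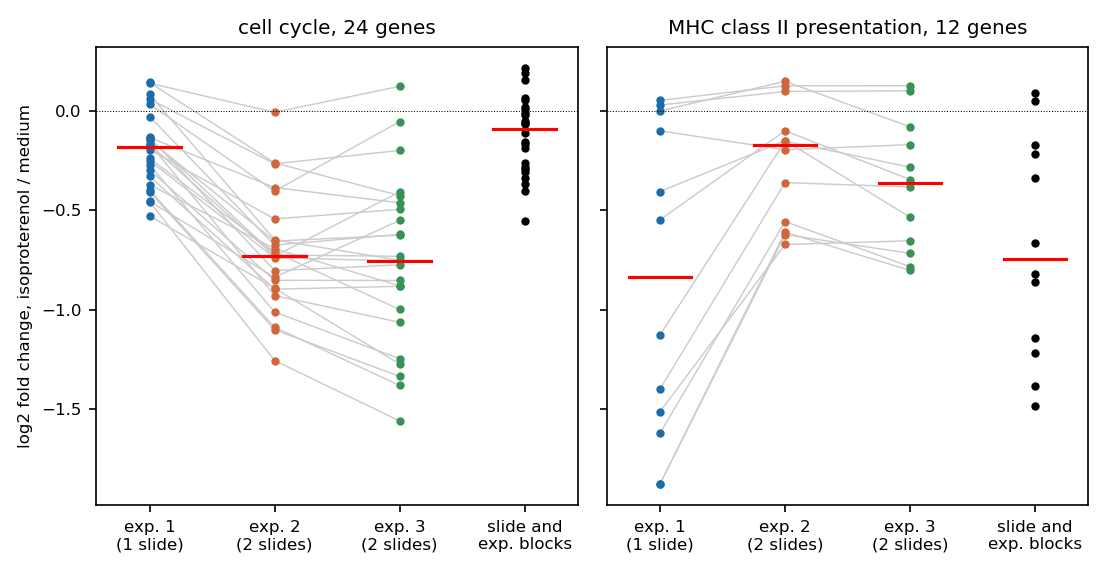
Log2 fold change of isoproterenol over medium (vertical axis) for each tested gene of the cell cycle (24 genes) and MHC class II (12 genes) lists in experiments 1, 2 and 3 and in the fit with slide and experiment as blocks (points; grey lines join a gene, red bars are medians). The cell cycle medians are -0.18, -0.73, -0.75 and -0.09, and the class II medians are -0.84, -0.17, -0.36 and -0.74.

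The series asks where beta-adrenergic activation lies between the states induced by IL-4 and IFN-gamma, and few genes of the marker lists of those states were called. Of 18 tested genes of alternative activation, Ccl24 rose and 0 fell, with a median of 0.00. Mrc1, the mannose receptor, was 2581 to 4283 in medium (median 3548) and 3188 to 6032 with isoproterenol (median 3793). That log2 difference, 0.29, did not pass (adjusted p = 0.65). Arg1, the enzyme that converts arginine to ornithine, was above background on 0 media arrays and 4 isoproterenol arrays, with medians of 137 and 153. Retnla and Chil3, 2 standard markers of this state, were above it on none of the 12 arrays, and Il4ra on 1 media array. In the 18 tested genes of classical activation, 0 were called, with a median of 0.00 and values from -0.27 to 0.20. Irf1 gave -0.27 (adjusted p = 0.36). Gbp5 and Ido1 were above background on none of the 12 arrays and Cxcl9 on 1 media array. Such genes were tested because IL-4 or IFN-gamma arrays passed the limit, and their values here give no evidence on a change. Among 19 type I interferon-stimulated genes 0 were called, with a median of -0.01.

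Values for the other activators differed from gene to gene. The comparisons of IL-4 and IFN-gamma with medium share the media arrays with that of isoproterenol, so their log2 differences are set side by side. Cav1 stood at 1.07 with isoproterenol, -0.21 with IL-4 and -0.54 with IFN-gamma. Pf4 stood at 1.37, 0.01 and -0.48 in the same order. Cytip was above medium with all 3 activators, by 1.49, 0.96 and 0.67. Fos was 0.91, -0.11 and 0.81, and Ccl24 was 1.17, 1.47 and -2.45. H2-Ea was -0.99 with isoproterenol and 0.66 and 1.91 with the cytokines.

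Isoproterenol was also compared directly with each cytokine, on arrays that do not include medium and that share a slide in experiments 1 and 3 but not in experiment 2. Of all genes tested, 11% differed from IL-4 and 45.9% from IFN-gamma. Cav1 was higher with isoproterenol by 1.27 against IL-4 (adjusted p = 2.6e-07) and by 1.61 against IFN-gamma (adjusted p = 3.2e-09), on the log2 scale. Pf4 was higher by 1.36 (adjusted p = 2.3e-04) and 1.84 (adjusted p = 2.7e-06). Both genes were thus higher than with either cytokine. Fos was higher than with IL-4 by 1.02 (adjusted p = 3.5e-05), but its difference of 0.10 from IFN-gamma did not pass (adjusted p = 0.42). Cytip and Ccl24 did not differ past the threshold from IL-4, at 0.53 (adjusted p = 0.12) and -0.30 (adjusted p = 0.15).

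Lists of cell stress and sterol synthesis had 0 called genes. These were the 10 tested NRF2 targets (median 0.18), the 17 genes of the unfolded protein and integrated stress responses (0.01) and the 19 genes of cholesterol biosynthesis (0.09). Hmox1, which degrades heme, and Srxn1, which repairs peroxiredoxins, came closest, with log2 differences of 0.34 (adjusted p = 0.057) and 0.38 (adjusted p = 0.072). Srxn1 did not overlap between the groups, at 1311 to 1530.2 in medium and 1719 to 1924 with isoproterenol. The same held for Slc7a11, at 492 to 739 and 848 to 943. Its log2 difference of 0.54 was the largest of the NRF2 list. In the macrophage list 1 of 18 genes was called, Itgam, a chain of the complement receptor CR3. It rose 1.30-fold from a median of 542 to 711 with overlap (adjusted p = 0.011, and 0.081 without isoproterenol array 1 of experiment 1). Cx3cr1, the fractalkine receptor, gave -0.63 (adjusted p = 0.07) and was above background on 4 of the 6 isoproterenol arrays.

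Pf4 and Ppbp also mark megakaryocytes and platelets. Of 14 markers of those cells in the table, 5 were above background on at least 6 of the 12 arrays, namely Pf4, Ppbp, Vwf, Treml1 and Clec1b. The lineage-defining genes Itga2b, Gp1bb, Gp5 and Gata1 were above it on no array. The summed intensity of the 14 was 5696 to 7166 on the media arrays and 8129.6 to 11207 with isoproterenol; Pf4 alone contributed 1420.3 to 2876 and 3649 to 6859 of it. Treml1, a platelet receptor, gave a log2 difference of -0.02 (adjusted p = 0.98). Itgb3 was above background on 3 media arrays and 0 isoproterenol arrays, Tubb1 on 2 and 2, and Selp on 0 and 4. Of the neutrophil markers 8 of 11 were above background, with sums of 2741 to 3580.1 in medium and 2922 to 3628 with isoproterenol (1640.3 at the limit), and Cxcr2 on no array. The erythroid sums were 3901 to 4993 and 3834 to 4762 (1193 at the limit). Tfrc and Klf1 were above background, and Hba-a1 and Alas2 were so on no array. Tfrc alone contributed 2921 to 4023 and 2829 to 3784, and Klf1 lay at 142 to 153 and 143 to 165. For endothelial cells the sums were 1601 to 1743 and 1529 to 1674 (1342 at the limit), with Tie1 and Eng above background. Eng alone contributed 464 to 572 and 428 to 552. For B cells, mast cells and fibroblasts the sums lay near or under those at the limit. Pf4 and Ppbp were called higher, and in the other lists of this paragraph no gene was called. For fibroblasts the sums were 1512 to 1556 in medium and 1518 to 1544 with isoproterenol, with the sum at the limit at 1640.3.

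Over all 29 lists, 363 distinct genes were tested and 23 were called (6.34%), which leaves 106 called genes outside any list. The lists were assembled with earlier results of these data known, and 1 of them holds only the 4 marking genes, so that share says nothing of the lists as such.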

How the data were processed

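The deposited values are linear intensity values that, per the submitters' processing notes, come from GenomeStudio (version not given in the sources used here). A second deposited table, with normalized values, holds 18132 genes, and its sorted values differ between arrays by a CV under 1% in 98.9% of ranks, which is what quantile normalization gives; no background subtraction is seen. Of the names, 16965 matched a current RefSeq symbol (2660 by a synonym) and 1167 were kept. Control probes, detection p-values and gene names for probes were planned for but are not in the tables analysed here, and were replaced by normexp in limma 3.58.1 (R 4.3.3) with offset 50 on the normalized table, then log2. The background limit, 149.1, is the 0.95 quantile of a normal curve around the mode of 137.3 with an SD of 0.0727 (log2). A gene was tested when above it on at least 6 of 24 arrays. For a gene above it on no array of a group, no fold is given. The 2 arrays of an experiment and group were averaged, and the 12 values were fitted in limma with group and experiment, prior degrees of freedom 4.96 and residual 6, with two-sided p-values and Benjamini-Hochberg adjustment over 10111 genes. The number of arrays limits the precision.

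The labels number the experiments alike in each group, and deviations from the group means of the same experiment correlated at 0.393, 0.569 and 0.186 between media and isoproterenol, so experiment was kept as a block. Slide 1 holds experiment 1, slide 2 experiment 2 except isoproterenol, slide 3 isoproterenol of experiment 2 and media of experiment 3, and slide 4 the rest. With slide and experiment as blocks, isoproterenol of experiment 2 and media of experiment 3 each stand alone and carry no weight. Outside slide 1 that fit links isoproterenol to media only through the cytokine arrays of slides 2 and 4. The genes named are the 4 marking genes, the 20 called genes with the largest differences in each direction and 1 sign in 3 experiments, called list members, the receptor genes and up to 6 members per list by size of log2 difference. The comparison, the markers and the lists were chosen with earlier results of these data known. Alternatives covered the background step, the dim-gene filter, averaging, blocks, moderation, probes in place of genes and left-out arrays. The fit was tested on simulated data. Some genes that the naming rule takes are not reported here.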

Additional observations from a re-analysis of the deposited data

Results flagged for a closer look

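In 49 called genes the 6 arrays of each group were searched for an array far from the rest, and 2 of 98 groups held one, where chance flags about 1 in 20. For Col18a1 with isoproterenol, array 1 of experiment 1 was lowest, with a gap to its neighbour of 0.813 of the group's range. For Cxcl1 with isoproterenol, array 1 of experiment 3 was lowest, with a gap of 0.836 of the range. Both gaps are above the critical value of Dixon's test for 6 arrays. Neither call was lost without that array.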

How the results depend on the processing

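The counts of genes changed, higher and lower were 129, 102 and 27. They were 83, 67 and 16 with a normexp offset of 16, 285, 218 and 67 with unaveraged arrays and the pair as a random block, and 36, 31 and 5 with no replicate block for experiment, so the pairing by experiment raised them. With slide and experiment as blocks they were 5, 5 and 0, within slide 1 they were 61, 46 and 15, with no moderation of the spread 28, 22 and 6, and for a fold threshold of 1.2 they were 14, 14 and 0. A fit of only media and isoproterenol changed 196 genes, 79 of them lower, and within slide 3, an alternative added after the slide layout was seen, 49 were lower. Leaving out 1 array or 1 experiment gave 12 to 136 changed, 12 to 108 higher and 0 to 29 lower; without experiments 1, 2 and 3 the counts changed were 38, 12 and 38, and the cause was not tested beyond the smaller number of samples. No result reversed. Of 49 named called genes, 18 lost the call without at least 1 single array and 42 without at least 1 experiment.

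The groups hold 3 experiments each, and the arrays of an experiment are not known to be independent. Only experiment 1 compares the groups within a slide. Genes close to the background limit, such as Crem, Ppbp and Dmkn, have fold changes that depend on the background step: without it the log2 differences of the called genes were 0.534 to 0.996 times as large. The dim 8021 genes were not tested.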

Other observations

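The genes in this part were chosen after their values were seen. Of 10 tested H2B histone genes, 5 rose (H2bc4, H2bc7, H2bc9, H2bc12 and H2bc14), with a median log2 difference of 0.39 over the 10. Of all genes tested 1.01% rose, but the family was picked for its values, so its count is no test of it. Over 17 tested H2A genes 0 were called in limma and the median was -0.39, and 0 were called among 9 H3, 9 H4 and 5 H1 genes. Histone genes are nearly identical within a family, so their probes can read related transcripts and single members are uncertain.

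Regulators that rose, by log2 difference, included Cebpb, a macrophage transcription factor known as a target of CREB, at 0.38, Kdm6b, a histone H3 demethylase, at 0.41, Notch1 at 0.59, Ctnnb1, the gene of beta-catenin, at 0.30 and Zfp36, whose product destabilizes inflammatory mRNAs, at 0.47. The cytokine gene Osm rose by 0.56 and the receptor gene Csf2rb2 by 0.59. Both Nt5e and Ada, enzymes of adenosine metabolism, were among the rises. Nt5e, which forms adenosine, ran from 136 to 146 on the media arrays, all below the background limit, and from 156 to 179 with isoproterenol, so its fold is not given. Ada, which deaminates adenosine, rose by 0.41. Among matrix proteases Adam8 rose by 0.45 and Mmp27 by 0.31, and Mmp10 was 139 to 145 in medium, below the limit on every array, and 157 to 174 with isoproterenol. Between these groups Nt5e, Mmp10 and Prl2c3 were above the limit only with isoproterenol (0 media and 6 isoproterenol arrays). Those 6 arrays alone were enough to pass the filter for testing. Their calls and the separation of their arrays, included in the counts above, are therefore no support for a rise. Called genes of DNA synthesis went both ways. Rfc2 (log2 -0.31), a subunit of the clamp loader, and Pole3 (-0.37), a subunit of DNA polymerase epsilon, fell. Pold4, which encodes a subunit of DNA polymerase delta, rose by 0.32 without overlap.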
